A study of Rattus norvegicus with 9 samples.

Results

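The genes described here are the Wnt ligands, their receptors and co-receptors, the secreted inhibitors of Wnt signalling, the R-spondins with their Lgr receptors, and a small number of transcription factors and feedback targets of the pathway. They were chosen by name from a list of 46 symbols, under a rule that uses no measured value, although the list was drawn up with earlier results of these data known. Of these symbols, 45 were found among the 32883 genes of the deposited tables, and *Znrf3* was not analysed here. The 45 members are 13 Wnt ligands, 10 Frizzled receptors, the 2 co-receptors *Lrp5* and *Lrp6*, the 3 further receptors *Ror1*, *Ror2* and *Ryk*, 9 secreted inhibitors, 3 R-spondins, 2 Lgr receptors and *Axin2*, *Lef1* and *Tcf7*.

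RNA sequencing was performed on cultured fibroblasts (Fb) of wild-type male Lewis rats at 10 weeks of age. Fb-Epn were grown from the epineurium, the connective tissue sheath of the nerve, and Fb-Par from the parenchyma that it encloses. Both came from the sciatic nerves of 2 rats, and Fb-Skn were taken from abdominal skin of 1 further rat, and all cells had undergone 1 passage with no further treatment. Each type was represented by 3 libraries. These cannot be 3 separate animals, so p-values measure the spread between these samples, which may be technical. Fb-Skn thus differed from the nerve-derived Fb in tissue, in animal and in body site at once, and these cannot be told apart.

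Wnt proteins are secreted, lipid-modified signals. In the canonical branch, a Wnt binds a Frizzled receptor together with Lrp5 or Lrp6, β-catenin is then spared from degradation, and TCF and LEF proteins switch on target genes such as *Axin2*. In other branches, Wnt5a and related ligands act through Frizzled with Ror1, Ror2 or Ryk and direct cell polarity and movement, without β-catenin. Secreted frizzled-related proteins (Sfrp) bind Wnts outside the cell, Dickkopf proteins such as Dkk1 and Dkk2 block the co-receptors, and R-spondins, through Lgr4 and Lgr5, keep Frizzled receptors at the cell surface. In peripheral nerve and skin, fibroblasts are both sources and recipients of Wnt signals.

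*Axin2* is the member most often used as a readout of the canonical branch, and its promoter is shown because it holds the letters that TCF and LEF proteins recognize. RefSeq promoter windows on the rat assembly GRCr8, each from 250 bases before to 50 bases after a gene's start, were matched for 30 of the 45 members. The stretch below lies at chr10:94398545-94398674 on the plus strand, from 240 to 111 bases upstream of the start, and its capitals mark CTTTGAA and CTTTGAT.
Axin2 promoter: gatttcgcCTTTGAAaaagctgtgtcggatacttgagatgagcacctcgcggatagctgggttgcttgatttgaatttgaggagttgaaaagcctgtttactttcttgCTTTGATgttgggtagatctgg
CTTTGAA and CTTTGAT were searched on both strands. At least 1 of them was found in the windows of 4 of the 30 matched members, or 13.3%, beside 2921 of all 33469 promoters, or 8.73%. The other three members were *Dkk1*, *Fzd7* and *Tcf7*. A match describes the letters only, and no binding was measured in these samples.

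Total counts ranged from 10084584 to 12310506 per library. Differences were tested on the raw counts of 13273 genes with edgeR's quasi-likelihood test, in 1 model of all 9 libraries. A gene was called when its p-value, adjusted by the Benjamini-Hochberg method over all tested genes, was under 0.01. Levels are given as the deposited TPM (counts divided by gene length and scaled to the same sum in every library), as mean ± SD of 3 libraries. Fold changes come from the count model and not from the TPM. TPM of the median gene was higher by 0.134 (Fb-Epn) and 0.135 (Fb-Par) on the log2 scale relative to Fb-Skn, so small differences of a TPM mean from Fb-Skn can differ in sign from the fold change. Summed TPM of 8 fibroblast markers, led by collagen genes, ranged from 31460 to 40260. Markers of other cells were lower but unequal among the types. Summed TPM of 8 Schwann cell markers ranged from 193 to 203 in Fb-Epn and from 268 to 275 in Fb-Par, but from 10.5 to 13.2 in Fb-Skn, where *Sox10*, *Erbb3* and *Cdh19* were at 0. Macrophage and leukocyte markers, 5 in number, ranged from 180 to 195, 41.0 to 44.5 and 8.82 to 10.7 TPM in the same order. The 4 pericyte markers ranged from 12.9 to 17.2, 85.4 to 94.1 and 24.9 to 27.2 TPM. Their sum in Fb-Skn was nearly all *Cspg4*, at 26.4 TPM beside 8.48 in Fb-Epn. The other pericyte markers went the other way between these types. *Rgs5*, *Kcnj8* and *Abcc9* had 4.49, 1.10 and 1.26 TPM in Fb-Epn, beside 0, 0 and 0.0182 in Fb-Skn. The 5 endothelial markers ranged from 14.8 to 15.3, 10.3 to 11.8 and 0.980 to 1.51 TPM, with *Cdh5* and *Emcn* at 0 in Fb-Skn. The 4 perineurial markers ranged from 211 to 216, 87.1 to 94.7 and 113 to 125 TPM. These sums were mostly *Slc2a1* (145, 34.9 and 69.0 TPM) and *Tjp1* (54.0, 47.2 and 39.7 TPM), in the same order of types. *Slc2a1* and *Itgb4* (13.7, 8.51 and 11.2 TPM) were lowest in Fb-Par, but *Tjp1* was lowest in Fb-Skn. *Cldn1* was highest in Fb-Par, on few counts, with 3, 0 and 2 in Fb-Epn, 4, 7 and 5 in Fb-Par, and 0 in every Fb-Skn library. The part of such cells in the results below was not tested, and in bulk samples fewer cells of a type and less RNA per cell cannot be told apart.

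The Wnt genes differed between the types in several respects, of which some are named here. Fb-Skn held more *Wnt4*, *Wnt5a*, *Rspo1* and *Axin2* than either nerve-derived type. Fb-Epn held far more of the inhibitors *Sfrp1*, *Sfrp2* and *Sfrp4*. Fb-Par held more *Wnt2* and *Ror1*. Receptors with the highest levels, *Fzd1*, *Fzd2*, *Ryk*, *Fzd7* and *Lrp6*, were present in every type and changed by less than 4-fold. Among receptors at lower levels, *Fzd4* and *Lgr5* were higher and *Fzd6* lower in both nerve-derived types than in Fb-Skn, each by more than 4-fold.

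Of the 45 members, 33 had enough counts to be tested. Between Fb-Epn and Fb-Skn, 28 tested members were called, beside 43.9% of all tested genes, with 13 higher in Fb-Epn (all genes 23%) and 15 lower (20.9%). Between Fb-Par and Fb-Skn, 22 members were called, beside 45.6% of all genes, with 12 higher in Fb-Par (all genes 23.2%) and 10 lower (22.4%). Between Fb-Epn and Fb-Par, 26 members were called, beside 38.8% of all genes, with 12 higher in Fb-Epn (20.2%) and 14 lower (18.6%). A call with more than a 4-fold change was made for 11 members between Fb-Epn and Fb-Skn, beside 8.44% of all genes, with 6 higher (6.22%) and 5 lower (2.22%). It was made for 12 members between Fb-Par and Fb-Skn, beside 8.54%, with 6 higher (5.86%) and 6 lower (2.67%), and for 9 between Fb-Epn and Fb-Par, beside 6.48%, with 5 higher (4.09%) and 4 lower (2.39%). The TPM of both types compared did not overlap for 29, 23 and 30 members, beside 61.4%, 61.7% and 57.3% of all tested genes. The median absolute log2 fold change of the 33 members was 1.12, 1.23 and 0.85, beside 0.33, 0.34 and 0.28 over all tested genes. Some members pass the filter on low counts only through the type in which they are high, so these shares describe the tested members and not the whole list. Comparisons of Fb-Epn and of Fb-Par with Fb-Skn share the 3 Fb-Skn libraries.

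Members called in all 3 comparisons numbered 15, and 2 were called in none, namely *Fzd5* and *Lrp5*. *Sfrp1* alone passed 4-fold in all 3 comparisons. By mean TPM, the level was highest in Fb-Skn for 9 tested members, each with a call against both other types. It was highest in Fb-Epn for 9 members and in Fb-Par for 15, of which 7 and 6 had a call against both other types. The numbers in this paragraph were not counted over all tested genes, so they do not set the members apart from other genes.

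**Figure D1:**
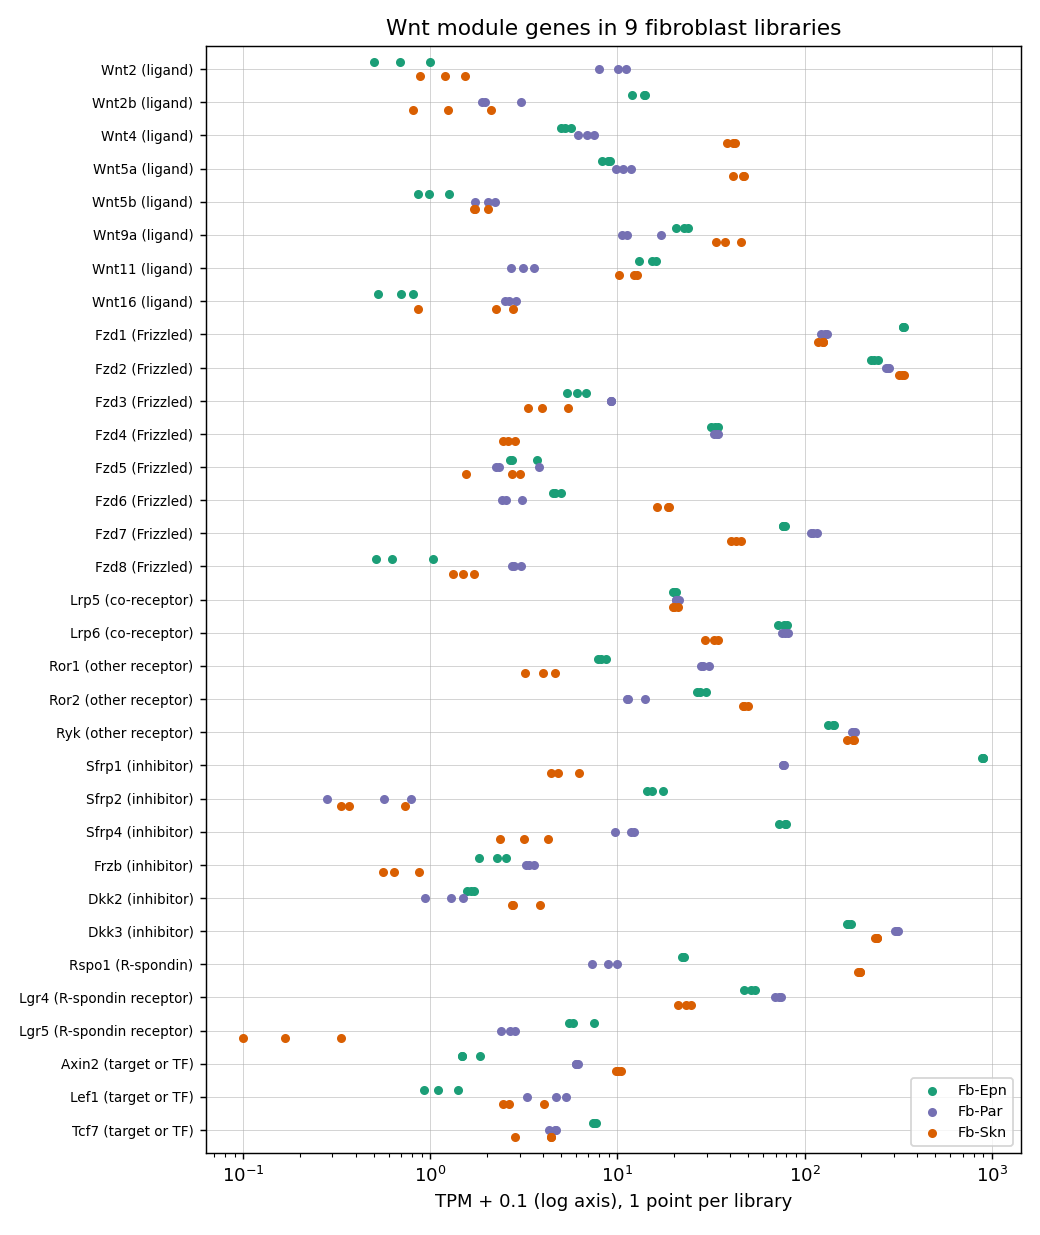
Deposited TPM + 0.1 of the 33 tested members, on a log axis, with 1 point for each of the 9 libraries and Fb-Epn, Fb-Par and Fb-Skn in separate colours. *Sfrp1* falls in steps from 892 to 76.7 to 5.05 TPM, whereas *Fzd2* and *Lrp5* lie close together in the 3 types.

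Among the 13 Wnt ligands, Fb-Skn had the highest summed level, carried by *Wnt5a*, *Wnt4* and *Wnt9a*, whereas *Wnt2b* was highest in Fb-Epn, *Wnt2* was highest in Fb-Par and *Wnt11* was lowest in Fb-Par. Summed ligand TPM was 143 ± 9.29 in Fb-Skn, 67.4 ± 3.13 in Fb-Epn and 50.7 ± 3.80 in Fb-Par. Of the 8 ligands tested, Fb-Epn had 1 higher and 5 lower than Fb-Skn (all tested genes 23% and 20.9%). Fb-Par had 1 higher and 4 lower than Fb-Skn (all genes 23.2% and 22.4%). Between Fb-Epn and Fb-Par, the counts were 3 higher and 4 lower in Fb-Epn (all genes 20.2% and 18.6%).

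*Wnt5a* (ENSRNOG00000015618, chr16:4469468-4489860 of rn6) encodes the main ligand of the branches that act without β-catenin. Its TPM was 8.17, 8.75 and 9.02 in Fb-Epn, 11.7, 10.6 and 9.75 in Fb-Par, and 41.4, 46.9 and 47.6 in Fb-Skn. Every Fb-Skn library lay far above the nerve-derived ones, and the nerve-derived types lay next to each other without overlap. The log2 fold change from Fb-Skn was −2.53 (SE 0.08, adjusted p = 1e-12) in Fb-Epn and −2.23 (SE 0.07, adjusted p = 3e-12) in Fb-Par, that is 5.76-fold and 4.69-fold lower. Fb-Epn and Fb-Par differed by −0.30 (SE 0.08, adjusted p = 0.00838), a call lost on leaving out any Fb-Epn library, Fb-Par replicate 1 or 2, or Fb-Skn replicate 2 or 3, with adjusted p from 0.0111 to 0.0493.

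*Wnt4* (ENSRNOG00000013166, chr5:155649217-155672579), a ligand with roles in kidney and gonad development, had the same order. TPM was 5.54, 5.11 and 4.87 in Fb-Epn, 6.08, 7.42 and 6.81 in Fb-Par, and 38.6, 42.5 and 41.1 in Fb-Skn. Fb-Skn again stood clear of both nerve-derived types. *Wnt4* was 8.67-fold lower in Fb-Epn (log2 −3.12, SE 0.08, adjusted p = 1.1e-13) and 6.69-fold lower in Fb-Par (log2 −2.74, SE 0.07, adjusted p = 2.9e-13) than in Fb-Skn. It was also lower in Fb-Epn compared with Fb-Par, by 0.37 (SE 0.09, adjusted p = 0.00249), a call that was lost without Fb-Epn replicate 2 (adjusted p = 0.01), Fb-Epn replicate 3 (0.0139) or Fb-Par replicate 2 (0.014).

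*Wnt9a* (chr10:45659143-45681393) had a high TPM on few counts, 34 to 134 per library, because the length behind its TPM is 0.122 of that of *Wnt5a*. TPM was 22.6, 20.5 and 23.6 in Fb-Epn, 10.5, 17.0 and 11.2 in Fb-Par, and 37.4, 33.5 and 45.9 in Fb-Skn. The 3 types did not overlap, with Fb-Par lowest. Log2 fold changes were −0.95 (SE 0.19, adjusted p = 0.0006) between Fb-Epn and Fb-Skn, −1.75 (SE 0.20, adjusted p = 3.1e-06) between Fb-Par and Fb-Skn, and 0.80 (SE 0.20, adjusted p = 0.00468) between Fb-Epn and Fb-Par. The last of these had adjusted p = 0.0151, 0.0173, 0.0266 and 0.0238 without Fb-Epn replicate 1 or 3 or Fb-Par replicate 1 or 3.

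*Wnt2b* (ENSRNOG00000014385, chr2:207440886-207455258) was highest in Fb-Epn. TPM was 13.8, 13.9 and 11.9 in Fb-Epn, 1.85, 1.78 and 2.94 in Fb-Par, and 1.14, 2.01 and 0.705 in Fb-Skn. Fb-Epn lay above both other types, which overlapped. The difference was 9.27-fold from Fb-Skn (log2 3.21, SE 0.29, adjusted p = 3.3e-07) and 6.04-fold from Fb-Par (log2 2.60, SE 0.27, adjusted p = 1.6e-06). Fb-Par and Fb-Skn did not pass the threshold (log2 0.62, SE 0.34, adjusted p = 0.140). *Wnt2b* lies within *St7l* on the opposite strand, which had 154 to 215 counts per library, and since the strand setting of the counting is not given in the sources used here, reads of these genes cannot be told apart with certainty.

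*Wnt11* (chr1:163797660-163813756), a ligand of cell movement during gastrulation, was lowest in Fb-Par. TPM was 15.2, 12.96 and 15.9 in Fb-Epn, 3.46, 2.61 and 3.03 in Fb-Par, and 10.1, 12.2 and 12.7 in Fb-Skn. It was 4.84-fold higher in Fb-Epn (log2 2.28, SE 0.15, adjusted p = 8e-09) and 4.23-fold higher in Fb-Skn (log2 −2.08 for Fb-Par, SE 0.15, adjusted p = 2.1e-08) than in Fb-Par. Fb-Epn and Fb-Skn differed by 0.20 (SE 0.13, adjusted p = 0.213), which did not pass, although their TPM did not overlap.

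*Wnt2* (ENSRNOG00000051905, chr4:45292437-45332420), known for its part in lung and vessel development, had the opposite pattern. TPM was 0.899, 0.398 and 0.592 in Fb-Epn, 10.98, 9.99 and 7.84 in Fb-Par, and 1.10, 1.42 and 0.784 in Fb-Skn. Fb-Par stood clear, while Fb-Epn and Fb-Skn overlapped. Counts were 80, 63 and 52 in Fb-Par but only 6, 3 and 4 in Fb-Epn and 8, 9 and 5 in Fb-Skn. *Wnt2* was 14.9-fold higher in Fb-Par compared with Fb-Epn (log2 −3.90 for Fb-Epn, SE 0.34, adjusted p = 2.3e-07) and 7.74-fold higher than in Fb-Skn (log2 2.95, SE 0.32, adjusted p = 1.6e-06).

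*Wnt16*, a ligand known from bone and cartilage, was low throughout, at 0.599, 0.424 and 0.710 TPM in Fb-Epn, 2.52, 2.41 and 2.77 in Fb-Par, and 2.65, 0.759 and 2.13 in Fb-Skn. Fb-Skn varied widely and overlapped with Fb-Par. *Wnt16* was 4.36-fold lower in Fb-Epn compared with Fb-Par (log2 −2.12, SE 0.46, adjusted p = 0.00144). Against Fb-Skn it was lower in Fb-Epn by 1.82 on the log2 scale (SE 0.48, adjusted p = 0.0049), a call lost on leaving out any Fb-Epn library or Fb-Skn replicate 1 or 3, with adjusted p from 0.0109 to 0.0371. *Wnt5b*, at 0.938 ± 0.202, 1.90 ± 0.246 and 1.73 ± 0.172 TPM, was lower in Fb-Epn compared with Fb-Skn (log2 −1.02, SE 0.30, adjusted p = 0.00949). That call was lost whichever of the 9 libraries was left out, with adjusted p from 0.0113 to 0.0412.

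The other five ligands were too low for the test. *Wnt9b* had no count in any library, and 3 counts over the summed 98617665 would be 0.0304 CPM, the counts divided by the library total and scaled as TPM is. *Wnt6*, *Wnt7b* and *Wnt10a* did not exceed a mean of 0.294 TPM in any type. *Wnt10b*, by contrast, had 20, 9 and 10 counts in Fb-Epn, 5, 11 and 7 in Fb-Par, and none in the Fb-Skn libraries. Against a floor of 3 counts over the Fb-Skn libraries together, *Wnt10b* in CPM was 11.9-fold higher in Fb-Epn and 7.27-fold higher in Fb-Par. Without the filter on low counts, edgeR gave adjusted p = 3.21e-06 for Fb-Epn and 7.94e-05 for Fb-Par.

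In the make-up of the ligand pool by TPM, no single ligand held most of it in any type. *Wnt9a* held 32.9% ± 1.33 in Fb-Epn, followed by *Wnt11* with 21.8% ± 1.504 and *Wnt2b* with 19.6% ± 2.20. Fb-Par had *Wnt9a* at 25.2% ± 5.12, *Wnt5a* at 21.2% ± 2.19 and *Wnt2* at 18.9% ± 2.85. In Fb-Skn, *Wnt5a* held 31.7% ± 1.31, *Wnt4* 28.6% ± 1.601 and *Wnt9a* 27.2% ± 3.20. *Wnt9a* rests on few counts for its TPM, and without it the leading ligands were *Wnt11* (32.5% ± 2.86) and *Wnt2b* (29.2% ± 2.78) in Fb-Epn, *Wnt5a* (28.2% ± 1.51) and *Wnt2* (25.3% ± 3.31) in Fb-Par, and *Wnt5a* (43.6% ± 0.935) and *Wnt4* (39.2% ± 0.699) in Fb-Skn. This second set of shares was added after the values were seen. *Wnt2* and *Wnt2b* also have a short length behind their TPM, 0.266 and 0.355 of that of *Wnt5a*. In Fb-Par, *Wnt2* had 80, 63 and 52 counts, beside 194, 205 and 198 of *Wnt4*, so the order of these ligands by TPM is not their order by counts.

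**Figure D2:**
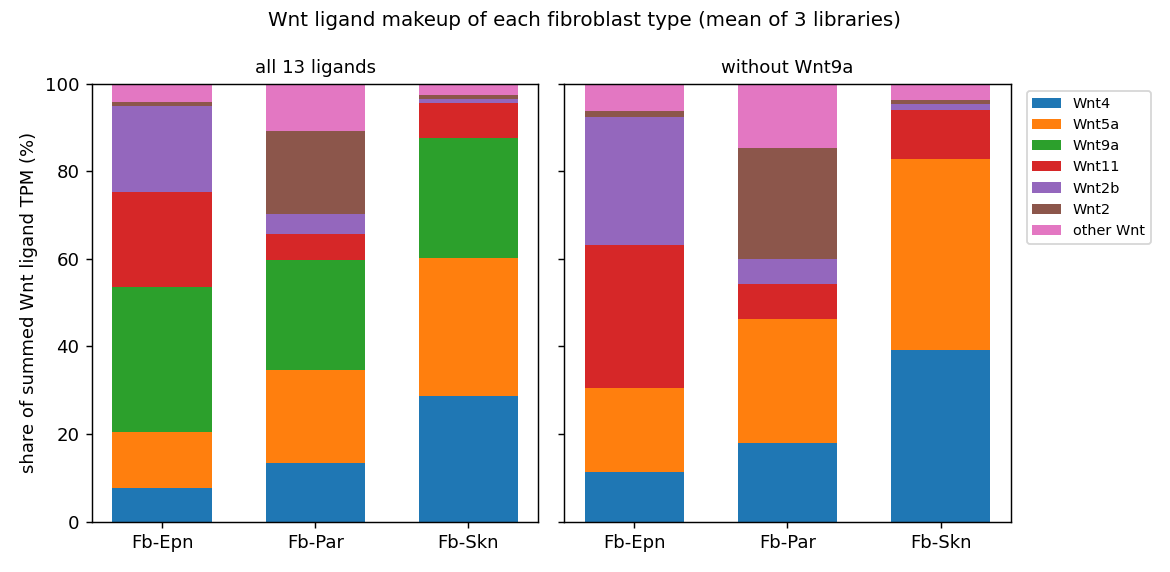
Stacked bars of the share of each ligand in the summed Wnt ligand TPM of each type, as the mean percentage over 3 libraries, with all 13 ligands on the left and without *Wnt9a* on the right. *Wnt2b* holds 19.6% of the ligand sum in Fb-Epn, *Wnt2* holds 18.9% in that of Fb-Par, and *Wnt5a* holds 31.7% in Fb-Skn.

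All 3 types held a large Frizzled pool, made mostly of *Fzd1*, *Fzd2* and *Fzd7*, and the types differed in which of them led. Summed Frizzled TPM was 697 ± 11.4 in Fb-Epn, compared with 568 ± 10.4 in Fb-Par and 523 ± 6.89 in Fb-Skn. Of the 8 Frizzled genes tested, 3 were higher and 3 lower in Fb-Epn compared with Fb-Skn (all tested genes 23% and 20.9%). In Fb-Par, 3 were higher and 2 lower than in Fb-Skn (all genes 23.2% and 22.4%). Between Fb-Epn and Fb-Par, 2 were higher and 4 lower in Fb-Epn (all genes 20.2% and 18.6%). Of these 8, only *Fzd4*, *Fzd6* and *Fzd8* passed 4-fold in any comparison.

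*Fzd1* (chr4:26470864-26475262) had 337, 339 and 334 TPM in Fb-Epn, 132, 128 and 123 in Fb-Par, and 118, 125 and 125 in Fb-Skn. Fb-Epn stood apart, and Fb-Par and Fb-Skn overlapped. The log2 fold change in Fb-Epn was 1.32 (SE 0.03, adjusted p = 1.3e-13) from Fb-Skn and 1.41 (SE 0.03, adjusted p = 7e-14) from Fb-Par. *Fzd2* was level by comparison, at 248, 225 and 235 TPM in Fb-Epn, 281, 280.2 and 271 in Fb-Par, and 338, 331 and 318 in Fb-Skn. Relative to Fb-Skn, its level in Fb-Epn and Fb-Par was lower by 0.62 (SE 0.04, adjusted p = 1.5e-08) and 0.40 (SE 0.04, adjusted p = 1.9e-06) on the log2 scale. As a share of the Frizzled sum, *Fzd1* led in Fb-Epn with 48.3% ± 0.864, whereas *Fzd2* led in Fb-Par with 48.8% ± 0.125 and in Fb-Skn with 62.9% ± 1.18.

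*Fzd7* was highest in Fb-Par, at 76.7, 78.6 and 76.8 TPM in Fb-Epn, 109, 116 and 111 in Fb-Par, and 45.4, 40.2 and 42.8 in Fb-Skn. All 3 types were separate. Relative to Fb-Skn the log2 fold change was 0.71 (SE 0.06, adjusted p = 6.1e-08) in Fb-Epn and 1.23 (SE 0.06, adjusted p = 8.9e-11) in Fb-Par.

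*Fzd4* (ENSRNOG00000016848, chr1:153589471-153598375), which also receives the non-Wnt ligand norrin in vessels, separated nerve from skin. TPM was 32.9, 34.3 and 31.4 in Fb-Epn, 34.0, 32.6 and 34.2 in Fb-Par, and 2.36, 2.49 and 2.74 in Fb-Skn. Both nerve-derived types overlapped, and all of their libraries lay far above Fb-Skn. *Fzd4* was 11.8-fold higher in Fb-Epn (log2 3.56, SE 0.07, adjusted p = 7.8e-15) and 11.98-fold higher in Fb-Par (log2 3.58, SE 0.07, adjusted p = 5.7e-15). Between Fb-Epn and Fb-Par the log2 difference was −0.02 (SE 0.05, adjusted p = 0.783). Summed TPM of the endothelial markers given above was also higher in the nerve-derived types, but not marker by marker. In Fb-Par it was mostly *Tek* (10.2 TPM), with *Kdr* at 0.0540 beside 0.0523 in Fb-Skn. *Cdh5* and *Tie1* had 0.0968 and 0.682 TPM in Fb-Par, beside 1.78 and 4.19 in Fb-Epn. A part of such cells in the *Fzd4* level was not tested.

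*Fzd6* (chr7:77899322-77931029), known for hair and skin patterning through cell polarity, had the reverse pattern. TPM was 4.55, 4.402 and 4.92 in Fb-Epn, 2.43, 2.31 and 3.00 in Fb-Par, and 16.2, 18.5 and 18.8 in Fb-Skn. The types were separate, with Fb-Skn highest. It was 4.25-fold lower in Fb-Epn (log2 −2.09, SE 0.11, adjusted p = 5.8e-10) and 7.65-fold lower in Fb-Par (log2 −2.93, SE 0.12, adjusted p = 2.4e-11) than in Fb-Skn.

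Lower Frizzled genes varied as well. *Fzd8* had 0.934, 0.413 and 0.527 TPM in Fb-Epn, 2.63, 2.97 and 2.68 in Fb-Par, and 1.23, 1.62 and 1.40 in Fb-Skn, with no overlap between types. It was 4.38-fold lower in Fb-Epn compared with Fb-Par (log2 −2.13, SE 0.31, adjusted p = 4.7e-05). The lower level in Fb-Epn compared with Fb-Skn (log2 −1.32, SE 0.33, adjusted p = 0.00361) was lost without Fb-Epn replicate 2 (adjusted p = 0.0194), Fb-Epn replicate 3 (0.0157) or Fb-Skn replicate 2 (0.0152). *Fzd3*, a receptor of axon tract guidance, had 5.96 ± 0.704, 9.14 ± 0.0473 and 4.13 ± 1.07 TPM and was higher in Fb-Par compared with Fb-Skn (log2 0.99, SE 0.17, adjusted p = 0.00021). Its lower level in Fb-Epn relative to Fb-Par (log2 −0.61, SE 0.17, adjusted p = 0.00752) was lost on leaving out any Fb-Epn or Fb-Par library or Fb-Skn replicate 1, with adjusted p from 0.0106 to 0.0366. *Fzd5* had 2.93 ± 0.588, 2.71 ± 0.887 and 2.34 ± 0.783 TPM and passed no test. *Fzd9* and *Fzd10*, the latter annotated as a pseudogene in the tables, were too low to test, with mean TPM of at most 0.586.

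The co-receptors differed from each other. *Lrp5* had 19.9, 20.3 and 19.7 TPM in Fb-Epn, 21.2, 20.5 and 20.4 in Fb-Par, and 20.02, 20.9 and 19.7 in Fb-Skn, and it passed no test. *Lrp6* had 77.9, 80.9 and 71.9 TPM in Fb-Epn, 78.0, 75.9 and 81.2 in Fb-Par, and 29.1, 34.5 and 32.8 in Fb-Skn. The nerve-derived types overlapped, and both lay above Fb-Skn. The log2 fold change from Fb-Skn was 1.12 (SE 0.06, adjusted p = 4.9e-10) in Fb-Epn and 1.14 (SE 0.06, adjusted p = 3.6e-10) in Fb-Par.

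Receptors of the branches without β-catenin split in opposite ways. *Ror1* (chr5:119097715-119241733) had 7.76, 8.59 and 8.08 TPM in Fb-Epn, 30.6, 28.5 and 27.8 in Fb-Par, and 3.10, 3.91 and 4.52 in Fb-Skn. Fb-Par was highest and Fb-Skn lowest, without overlap. *Ror1* was 6.82-fold higher in Fb-Par compared with Fb-Skn (log2 2.77, SE 0.10, adjusted p = 8.6e-12), and lower in Fb-Epn compared with Fb-Par by 1.82 on the log2 scale (SE 0.09, adjusted p = 4.1e-10).

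*Ror2* (chr17:11953552-12134386), the other receptor tyrosine kinase that binds Wnt5a, had 29.5, 26.5 and 27.4 TPM in Fb-Epn, 11.1, 14.0 and 11.3 in Fb-Par, and 47.1, 49.5 and 46.9 in Fb-Skn. Here Fb-Par was lowest. *Ror2* was 4.39-fold lower in Fb-Par compared with Fb-Skn (log2 −2.13, SE 0.08, adjusted p = 1.2e-11), and lower in Fb-Epn compared with Fb-Skn by 0.92 (SE 0.07, adjusted p = 7e-08). *Ryk*, a receptor of Wnt-guided axons, was high in all types, at 144, 133 and 141 TPM in Fb-Epn, 182, 178 and 186 in Fb-Par, and 182, 183 and 169 in Fb-Skn. It was lower in Fb-Epn compared with Fb-Skn by 0.50 (SE 0.05, adjusted p = 4.3e-07) on the log2 scale, and Fb-Par did not differ from Fb-Skn past the threshold (log2 −0.12, SE 0.05, adjusted p = 0.0343).

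**Figure D3:**
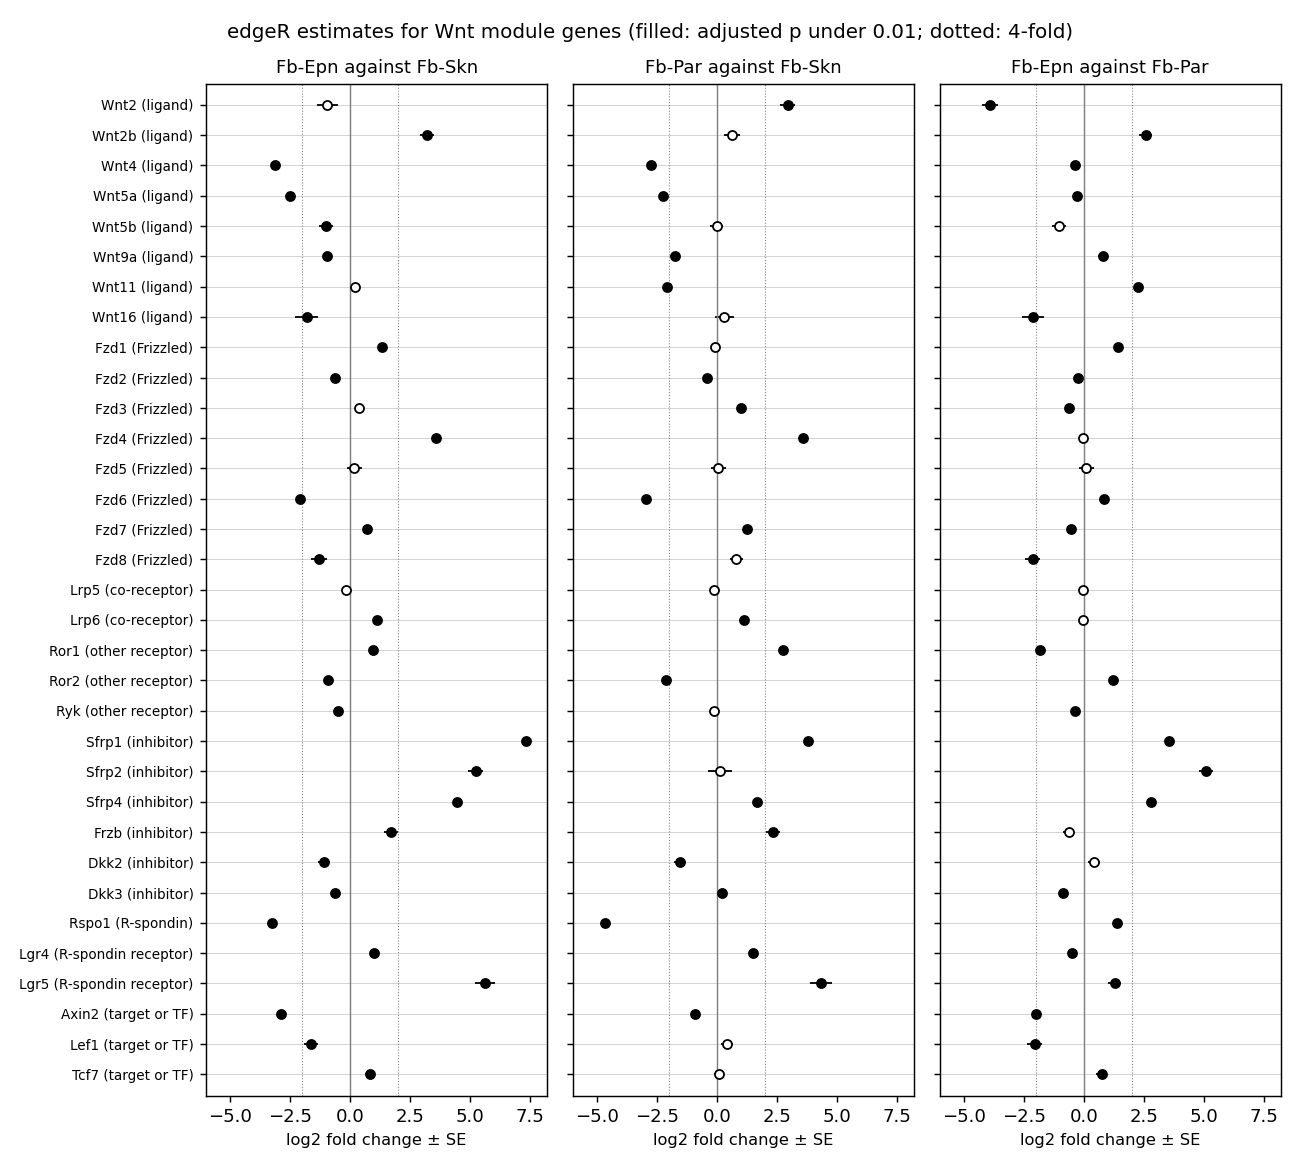
Log2 fold change of each tested member in the 3 comparisons, from edgeR, with bars for the SE, filled symbols for an adjusted p under 0.01 and dotted lines at 4-fold. *Sfrp1* lies furthest to the right, at 7.33 for Fb-Epn against Fb-Skn, and *Rspo1* furthest to the left, at −4.66 for Fb-Par against Fb-Skn.

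Secreted inhibitors included *Sfrp1*, the tested member with the largest fold change. Summed TPM of the Sfrp genes with *Frzb* was 986 ± 10.2 in Fb-Epn, but 91.7 ± 0.848 in Fb-Par and 9.20 ± 0.889 in Fb-Skn. Of the 6 secreted inhibitors tested, 4 were higher and 2 lower in Fb-Epn compared with Fb-Skn (all tested genes 23% and 20.9%). In Fb-Par, 4 were higher and 1 lower than in Fb-Skn (all genes 23.2% and 22.4%). Between Fb-Epn and Fb-Par, 3 were higher and 1 lower in Fb-Epn (all genes 20.2% and 18.6%).

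*Sfrp1* (ENSRNOG00000017783, chr16:73372007-73410777) had 892, 881 and 903 TPM in Fb-Epn, 76.5, 76.3 and 77.4 in Fb-Par, and 4.34, 6.10 and 4.71 in Fb-Skn. These values rest on 17442 to 19471 counts per library in Fb-Epn, on 1408 to 1632 in Fb-Par and on 88 to 113 in Fb-Skn. The types formed 3 steps that lay far apart in relation to the spread within each. *Sfrp1* was 161-fold higher in Fb-Epn (log2 7.33, SE 0.06, adjusted p = 2.2e-18) and 13.7-fold higher in Fb-Par (log2 3.78, SE 0.07, adjusted p = 1.8e-15) than in Fb-Skn. Fb-Epn exceeded Fb-Par by 11.7-fold (log2 3.55, SE 0.05, adjusted p = 1.1e-16). *Sfrp1* made up 90.4% ± 0.417 of the Sfrp and *Frzb* sum in Fb-Epn, with 83.7% ± 1.37 in Fb-Par and 54.7% ± 6.54 in Fb-Skn.

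*Sfrp4* (chr17:47297489-47394328), known for its role in bone, followed the same order at a lower level. TPM was 72.5, 78.0 and 79.1 in Fb-Epn, 12.1, 11.7 and 9.56 in Fb-Par, and 3.08, 2.24 and 4.13 in Fb-Skn. No library of one type overlapped with another type. It was 22.01-fold higher in Fb-Epn compared with Fb-Skn (log2 4.46, SE 0.13, adjusted p = 6.9e-13) and 6.93-fold higher than in Fb-Par (log2 2.79, SE 0.11, adjusted p = 2e-11). Fb-Par exceeded Fb-Skn by 1.67 on the log2 scale (SE 0.15, adjusted p = 2.4e-07). *Sfrp4* overlaps *Nme8* on the opposite strand, which had 0 counts in every library.

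*Sfrp2* (chr2:182723854-182731764) was close to absent outside Fb-Epn. TPM was 15.2, 17.4 and 14.2 in Fb-Epn, 0.467, 0.180 and 0.684 in Fb-Par, and 0.235, 0.628 and 0.267 in Fb-Skn. Counts were 179, 231 and 169 in Fb-Epn but only 2 to 8 per library in Fb-Par and 3 to 7 in Fb-Skn. It was 37.2-fold higher in Fb-Epn compared with Fb-Skn (log2 5.22, SE 0.31, adjusted p = 2.8e-09) and 34.3-fold higher than in Fb-Par (log2 5.10, SE 0.30, adjusted p = 2.6e-09). Fb-Par and Fb-Skn overlapped and differed by 0.12 (SE 0.49, adjusted p = 0.856).

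*Frzb*, also called *Sfrp3*, was low, at 2.18, 2.45 and 1.73 TPM in Fb-Epn, 3.27, 3.47 and 3.15 in Fb-Par, and 0.536, 0.768 and 0.457 in Fb-Skn. Unlike those of *Sfrp1*, *Sfrp2* and *Sfrp4*, its mean was highest in Fb-Par. It was 5.01-fold higher in Fb-Par compared with Fb-Skn (log2 2.32, SE 0.29, adjusted p = 7e-06) and also higher in Fb-Epn (log2 1.70, SE 0.30, adjusted p = 0.0002), while Fb-Epn and Fb-Par did not differ past the threshold (log2 −0.62, SE 0.24, adjusted p = 0.0440). *Sfrp5* had at most 2 counts in a library.

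**Figure D4:**
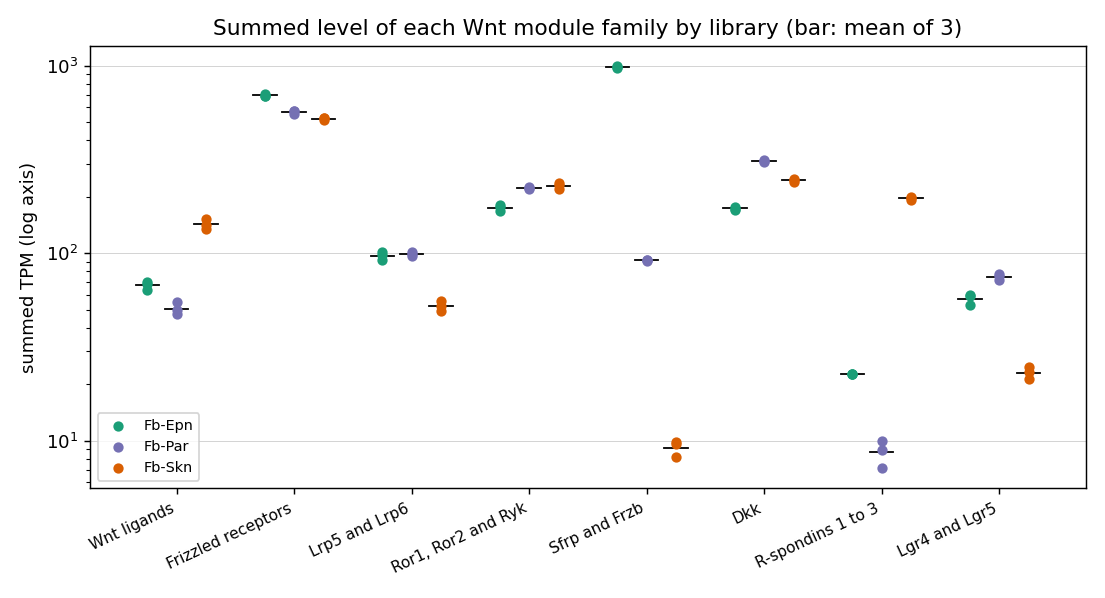
Summed TPM of each family in the 9 libraries, on a log axis, with 1 point per library and a bar for the mean of each type. The Sfrp and *Frzb* sum falls from 986 in Fb-Epn to 9.20 in Fb-Skn, whereas the R-spondin sum is 196 in Fb-Skn but 22.8 in Fb-Epn and 8.67 in Fb-Par and the Frizzled sum stays between 523 and 697.

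The Dickkopf level was set by *Dkk3*, a divergent family member that does not act as the others do on Lrp5 and Lrp6. TPM was 169, 171 and 176 in Fb-Epn, 306, 311 and 314 in Fb-Par, and 237, 244 and 245 in Fb-Skn. The types were separate, with Fb-Par highest. *Dkk3* was lower in Fb-Epn compared with Fb-Skn by 0.63 (SE 0.03, adjusted p = 9.6e-11) and than in Fb-Par by 0.84 (SE 0.03, adjusted p = 3.7e-12), and higher in Fb-Par compared with Fb-Skn by 0.21 (SE 0.03, adjusted p = 1.6e-05). *Dkk2*, which binds the co-receptors, had 1.54 ± 0.0753, 1.14 ± 0.283 and 3.02 ± 0.660 TPM. It was lower than in Fb-Skn by 1.10 (SE 0.24, adjusted p = 0.00141) in Fb-Epn and by 1.54 (SE 0.25, adjusted p = 0.00011) in Fb-Par, and the first of these reached an adjusted p of 0.011 without Fb-Skn replicate 3. *Dkk1*, a target and strong inhibitor of the canonical branch, had no count in any library. *Notum*, the enzyme that removes the lipid from Wnt proteins, had at most 2 counts in a library.

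*Rspo1*, the only R-spondin of the list with enough counts to test, was highest in Fb-Skn, whereas *Lgr4* and *Lgr5* were lowest there. *Rspo1* (ENSRNOG00000009656, chr5:142986526-143007831) had 22.5, 22.3 and 22.05 TPM in Fb-Epn, 7.17, 9.89 and 8.81 in Fb-Par, and 198, 192 and 197 in Fb-Skn. The types did not overlap. It was 9.67-fold lower in Fb-Epn (log2 −3.27, SE 0.07, adjusted p = 2.9e-14) and 25.3-fold lower in Fb-Par (log2 −4.66, SE 0.08, adjusted p = 2e-15) than in Fb-Skn, and higher in Fb-Epn compared with Fb-Par (log2 1.39, SE 0.10, adjusted p = 1.9e-08).

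The other R-spondins of the list were too low for the test. *Rspo3* had 3, 3 and 3 counts in Fb-Epn, 0, 1 and 0 in Fb-Par, and 16, 9 and 12 in Fb-Skn. Without the filter, its log2 fold change between Fb-Epn and Fb-Skn was −2.20 (adjusted p = 0.00497), and edgeR gave adjusted p = 1.01e-05 between Fb-Par and Fb-Skn. *Rspo2* had 3, 8 and 11 counts in Fb-Epn, 0, 0 and 2 in Fb-Par, and 0 in Fb-Skn, so that its CPM was 6.73-fold higher in Fb-Epn than a floor of 3 counts over the Fb-Skn libraries. Both R-spondins thus sat opposite each other in Fb-Epn and Fb-Skn, on very few reads.

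*Lgr5* (chr7:58448277-58587787), known as a marker of epithelial stem cells, had 5.66, 5.40 and 7.42 TPM in Fb-Epn, 2.74, 2.29 and 2.56 in Fb-Par, and 0.235, 0 and 0.0666 in Fb-Skn. The Fb-Skn values are 4, 0 and 1 counts, whereas Fb-Epn had 89 to 118 and Fb-Par 34 to 47. It was 49.3-fold higher in Fb-Epn (log2 5.62, SE 0.42, adjusted p = 3.7e-08) and 20.2-fold higher in Fb-Par (log2 4.33, SE 0.46, adjusted p = 1.5e-06) than in Fb-Skn. Without Fb-Skn replicate 1, which holds 4 of the 5 counts of Fb-Skn, the log2 fold changes were 7.11 (adjusted p = 7.22e-08) and 5.83 (adjusted p = 1.28e-06). *Lgr4* was more abundant, at 54.1, 47.4 and 51.5 TPM in Fb-Epn, 72.5, 69.5 and 74.6 in Fb-Par, and 21.1, 24.6 and 23.2 in Fb-Skn. Its types were separate as well, with Fb-Par highest. The log2 fold change from Fb-Skn was 1.01 (SE 0.06, adjusted p = 5e-09) in Fb-Epn and 1.504 (SE 0.06, adjusted p = 4e-11) in Fb-Par. Between Fb-Epn and Fb-Par, *Lgr5* was higher (log2 1.29, SE 0.26, adjusted p = 0.00084) and *Lgr4* lower (log2 −0.49, SE 0.06, adjusted p = 5.8e-06) in Fb-Epn.

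The 3 genes at the end of the pathway did not move together. *Axin2* (ENSRNOG00000055010, chr10:97212432-97239642), whose promoter is shown above, had 1.75, 1.37 and 1.38 TPM in Fb-Epn, 5.90, 6.02 and 5.93 in Fb-Par, and 9.75, 9.91 and 10.4 in Fb-Skn. Levels formed 3 separate steps, lowest in Fb-Epn, where the Sfrp sum was highest. *Axin2* was 7.35-fold lower in Fb-Epn compared with Fb-Skn (log2 −2.88, SE 0.13, adjusted p = 1.6e-10). It was lower in Fb-Par compared with Fb-Skn by 0.90 (SE 0.11, adjusted p = 9.5e-06) and in Fb-Epn compared with Fb-Par by 1.98 (SE 0.14, adjusted p = 1.7e-08). Whether the inhibitor level has a part in the *Axin2* level was not tested.

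*Lef1*, a transcription factor that is itself a target in many tissues, had 1.00, 0.820 and 1.30 TPM in Fb-Epn, 4.598, 3.19 and 5.21 in Fb-Par, and 2.35, 2.53 and 3.96 in Fb-Skn. Fb-Epn lay below the other types, which overlapped. It was 4.13-fold lower in Fb-Epn compared with Fb-Par (log2 −2.05, SE 0.30, adjusted p = 4.4e-05) and lower than in Fb-Skn by 1.63 (SE 0.31, adjusted p = 0.00038). *Tcf7*, by contrast, was highest in Fb-Epn, at 7.41 ± 0.156, 4.44 ± 0.199 and 3.79 ± 0.923 TPM. The difference of Fb-Epn was 0.83 (SE 0.21, adjusted p = 0.00416) from Fb-Skn and 0.74 (SE 0.21, adjusted p = 0.00853) from Fb-Par. The first call was lost without any Fb-Epn library or Fb-Skn replicate 1 (adjusted p from 0.0125 to 0.0232), and the second without any Fb-Epn or Fb-Par library or Fb-Skn replicate 2 or 3 (from 0.0102 to 0.0294).

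The rest of the pathway was described from a second list of 80 genes, which covers Wnt secretion, further inhibitors, Dishevelled proteins, the β-catenin destruction complex, polarity genes and targets. Of these, 79 were in the tables and 65 were tested. Called genes numbered 37 between Fb-Epn and Fb-Skn (17 higher and 20 lower), 39 between Fb-Par and Fb-Skn (24 higher and 15 lower) and 43 between Fb-Epn and Fb-Par (17 higher and 26 lower). These are 56.9%, 60.0% and 66.2% of the 65, beside 43.9%, 45.6% and 38.8% of all tested genes. Of all tested genes, 23% were higher and 20.9% lower in the first comparison, 23.2% and 22.4% in the second, and 20.2% and 18.6% in the third. With libraries scaled by their size only, the first split of the other pathway genes was 23 higher and 18 lower and the second 29 higher and 11 lower. Changes past 4-fold were made by 6, 7 and 2 of them, or 9.23%, 10.8% and 3.08%, beside 8.44%, 8.54% and 6.48% of all tested genes.

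There were 7 genes with such a change, of which *Wif1* and *Sostdc1* encode secreted inhibitors. *Wif1*, the Wnt inhibitory factor, was highest in Fb-Skn, with 24.4 ± 0.313 TPM, beside 1.94 ± 1.06 in Fb-Epn and 1.71 ± 0.422 in Fb-Par (log2 −3.79, SE 0.24, adjusted p = 6.1e-09 in Fb-Epn). *Sostdc1*, which inhibits both Wnt and BMP signals, had 10.8 ± 0.984 and 2.96 ± 0.867 TPM in Fb-Epn and Fb-Par and 0 counts in Fb-Skn, so that it was 92.3-fold and 25.3-fold higher than a floor of 3 counts. *Wif1* and *Sostdc1* thus ran in opposite directions between skin and nerve.

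*Rspo4* continued the pattern of *Rspo1*, with 100, 90 and 90 counts in Fb-Skn, 19, 11 and 23 in Fb-Epn and 0 in Fb-Par. It was lower in Fb-Epn compared with Fb-Skn by 2.60 on the log2 scale (SE 0.28, adjusted p = 5.5e-06). *Dact2*, an intracellular modulator of Wnt signalling, had 8.18 ± 0.645 TPM in Fb-Epn, on 120 to 141 counts, but 5 to 14 counts in Fb-Par and at most 3 in Fb-Skn. It was higher in Fb-Epn compared with Fb-Par (log2 3.79, SE 0.32, adjusted p = 1.6e-07). *Tnfrsf19*, a receptor and Wnt target, was low in the nerve-derived Fb, at 1.06 ± 0.0154 and 1.88 ± 0.507 TPM, and had 0 counts in Fb-Skn. The cell polarity cadherins *Celsr1* and *Celsr2* were higher in Fb-Par compared with Fb-Skn, by 2.35 (SE 0.66, adjusted p = 0.0072) and 5.71 (SE 0.50, adjusted p = 1.9e-07) on the log2 scale. *Celsr2* had 195, 180 and 177 counts in Fb-Par and 0, 9 and 0 in Fb-Skn, so that all of its Fb-Skn reads were in 1 library.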

How the data were processed

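Poly(A) libraries were sequenced as paired ends of 150 bp. Per the submitters' processing notes and the study's methods, reads were checked with FastQC 0.11.7, trimmed with Trimmomatic 0.38, aligned with HISAT2 2.1.0 to rn6 and counted with featureCounts 1.6.3, with a strand setting not given in the sources used here. The authors deposited raw counts per gene and TPM. For genes with counts in every library, TPM was checked to be the count over a single gene length, rescaled within the library (largest relative deviation 2.91e-07). A deposited table of FPKM was not used.

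Counts were tested with edgeR 4.0.16 in R 4.3.3 (filterByExpr, TMM factors 0.955 to 1.03, quasi-likelihood F test, common coefficient of variation 8.25%), without covariates, and types came from the sample labels. The SE is the log2 fold change divided by the square root of F. Folds against a type with 0 counts were taken against 3 counts over its libraries. They take the count of the higher type as exact, so they cover neither its counting error nor the spread between samples. With 3 libraries per type, an exact permutation test of a single gene cannot reach 0.05.

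The members and lists were chosen with earlier results of these data known. Values in every library are given for members past 4-fold in at least 1 comparison or with a mean TPM of at least 20 in at least 1 type, and other pathway genes are named where past 4-fold. Alternatives used limma 3.58.1 on log2(TPM + 1) and log2(TPM + 0.1), DESeq2 1.42.0, other scalings and filters, a replicate block, and each library left out. Libraries of a type differed beyond counting noise (chi-square per degree of freedom 3.31 to 5.48), so none was a copy of another. Separate cultures, separate libraries of 1 culture and repeat runs with technical noise beyond counting cannot be told apart in this way. A simulation for Fb-Epn against Fb-Skn gave every gene the same spread and changed 200 genes in Fb-Epn by 4-fold. In it, 197 of 197 tested changed genes were recovered among 13032 genes, with 3 unchanged genes called. Smaller changes and unequal spreads were not simulated, so it does not bear on calls of less than 4-fold. Tables and plots were made in Python 3.11.15.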

Additional observations from a re-analysis of the deposited data

How the results depend on the processing

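Members called numbered 22 to 30 between Fb-Epn and Fb-Skn, 19 to 25 between Fb-Par and Fb-Skn and 21 to 28 between Fb-Epn and Fb-Par over the alternatives that kept all libraries, and no called member changed direction in any alternative. On leaving out single libraries, the numbers were 25 to 29, 23 to 24 and 21 to 25 members, of which 11 to 14, 12 to 14 and 6 to 10 were past 4-fold. For the other pathway genes they were 33 to 37, 32 to 39 and 35 to 42, with 6 to 7, 5 to 7 and 2 to 3 past 4-fold.

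Members past 4-fold fell from 12 to 7 between Fb-Par and Fb-Skn and from 9 to 5 between Fb-Epn and Fb-Par with limma on log2(TPM + 1), a scale that shrinks changes of low genes. A filter of at least 10 counts in every library, which tests fewer genes, lowered the members past 4-fold between Fb-Epn and Fb-Par to 4. The other pathway genes past 4-fold then numbered 1, 1 and 0 in the 3 comparisons, in place of 6, 7 and 2. They numbered 3 between Fb-Par and Fb-Skn with limma on log2(TPM + 1), and 1 between Fb-Epn and Fb-Par with only the libraries compared.

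Of 76 calls of single members, 11 were lost under at least 1 alternative, 10 of them on leaving out a library. The exception was *Lgr5* between Fb-Epn and Fb-Par, with adjusted p = 0.0249 by limma on log2(TPM + 0.1). *Fzd3* between Fb-Epn and Fb-Par reached an adjusted p of 0.0366 with a library left out. No pairing by replicate number was seen. Deviations of equally numbered libraries correlated at −0.0511 to 0.0401 beside −0.0337 to 0.0482 for unequal numbers. A small shared effect could be missed in this way. With the replicate block, 27, 22 and 24 members were called, and 3 of 99 member calls changed. Scaling by library size alone moved the median of all genes by 0.09 and 0.08 against Fb-Skn, where 63.7% and 61.9% of called genes were then higher, in place of 52.3% and 50.8%. With limma on log2(TPM + 1) these shares were 69% and 66.9%. The depth limits *Rspo2*, *Wnt10b* and *Lgr5* in Fb-Skn and *Rspo3* in Fb-Par and Fb-Epn, which have few or no counts there.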

Other observations

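Feedback genes and targets of the canonical branch outside the member list did not share a single order, and those named here were chosen after their values were seen. *Nkd2*, *Nkd1* and *Ccn4* had the order of *Axin2*, with Fb-Skn highest and Fb-Epn lowest. *Nkd2*, which encodes a feedback inhibitor that binds Dishevelled, had 162 ± 2.45 TPM in Fb-Skn, 84.6 ± 0.595 in Fb-Par and 47.9 ± 1.33 in Fb-Epn. It was lower than in Fb-Skn by 1.90 on the log2 scale in Fb-Epn (adjusted p = 1.1e-14) and by 1.09 in Fb-Par (adjusted p = 3.1e-12), by edgeR. Its relative *Nkd1* had 20.3 ± 2.40, 12.4 ± 0.773 and 9.29 ± 0.331 TPM in the same order. *Ccn4*, also called *Wisp1*, a secreted matricellular protein gene, had 203 ± 10.3, 123 ± 5.74 and 81.6 ± 5.39 TPM. These 3 genes had a call in each of the 3 comparisons, and since they were picked for their order they give no independent support for it. Other targets went otherwise. *Myc* was highest in Fb-Epn, at 91.1 ± 4.82 TPM, beside 34.6 ± 2.22 in Fb-Par and 26.8 ± 0.330 in Fb-Skn. *Ccnd1*, which encodes cyclin D1, was lowest in Fb-Par, at 25.4 ± 0.426 TPM, beside 42.1 ± 2.41 in Fb-Epn and 57.5 ± 4.21 in Fb-Skn. *Apcdd1*, a membrane inhibitor of the pathway, was highest in Fb-Par, at 6.93 ± 0.473 TPM, beside 2.63 ± 0.519 and 3.95 ± 0.385 in Fb-Epn and Fb-Skn. *Ccn5* and *Bambi* were lower in Fb-Epn than in both other types, between which they did not pass the threshold (adjusted p = 0.361 and 0.504 by edgeR).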
